A study of Mus musculus with 2 samples.

Results

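Expression of the phagocyte NADPH oxidase was examined through 5 of its subunit genes, Cybb, Cyba, Ncf1, Ncf4 and Rac2, in macrophages of the mouse sciatic nerve. The 5 genes were chosen by name from the 54838 genes of the count matrices, and all 5 were measured in both libraries. Macrophages (CD64+ CD45int) were sorted from the pooled sciatic nerves of 19 male Flt3-Cre LSL-YFP fl/fl mice aged 10 to 12 weeks, and YFP− and YFP+ cells were sequenced as separate 10x Chromium libraries. In these mice Cre driven by Flt3 marks cells that descend from hematopoietic stem cells (HSCs) with YFP, so YFP− cells are read as embryonic-derived and YFP+ cells as HSC-derived, and both groups carry the same alleles. Unlabelled cells of HSC origin would fall among the YFP− cells and cannot be told apart from them here. Each group was 1 library, so the condition has no replicate, no test was made, and every interval below covers counting error only.

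The phagocyte oxidase moves electrons from NADPH across a membrane to oxygen and so makes superoxide, which macrophages and neutrophils use against microbes and as a signal. Its catalytic subunit gp91phox (Nox2), encoded by Cybb, sits in the membrane with p22phox, encoded by Cyba, which stabilises it. On activation cytosolic subunits, among them p47phox (Ncf1) and p40phox (Ncf4), move to this pair together with a Rac GTPase, of which Rac2 is the form restricted to blood cells. Loss of the membrane or cytosolic subunits causes chronic granulomatous disease, and in microglia the same enzyme is a known source of oxidants.

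A cell was a barcode with at least 500 unique molecular identifiers (UMIs, each counting 1 captured RNA molecule) and at least 200 genes, which gave 1045 YFP− and 4053 YFP+ cells. The YFP− cells had a median of 2233 UMIs and the YFP+ cells a median of 1484, and 7 cell barcodes were found in both libraries. All 7 macrophage markers were detected, and their levels summed to 3141 and 2997 CPM (counts per 1000000 UMIs) in YFP− and YFP+ cells. Of 7 neutrophil markers, which mark another cell type rich in this oxidase, S100a8, S100a9, Retnlg and Ly6g were at 0 in the cells of both libraries. The 7 together summed to 172 (YFP−) and 109 CPM (YFP+), the highest of them at 155 and 96.0 CPM. Schwann cell markers summed to 689 and 630 CPM. Cells fell into 10 clusters, found without the 5 genes, of which 9 had at least 6 of the 7 macrophage markers detected. In cluster 8 the neutrophil markers summed to 644 CPM against 113 in the other cells, with 1 of the 7 raised. The cluster numbered 10 was led by Myl9, Myh11 and Tagln and held 13 YFP− and 86 YFP+ cells with raised mural, Schwann and fibroblast markers.

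The 5 genes lie on 4 chromosomes of GRCm38, by the GENCODE annotation. Cybb spans chrX:9435252-9487771, Cyba chr8:122424776-122432930, Ncf1 chr5:134220053-134229625 and Rac2 chr15:78559167-78572783, all on the minus strand, and Ncf4 spans chr15:78244801-78262580 on the plus strand. RefSeq promoter sequence (GRCm38.p6) was found for 3 of the 5, Cybb, Cyba and Ncf1. The 150 bases before each start are printed 5′ to 3′ on the minus strand, because they show how unlike in sequence the starts of these subunits of 1 enzyme are. Capitals mark CCAAT (or ATTGG) and GGGCGG (or CCGCCC), and the positions are chrX:9469325-9469474 for Cybb, chr8:122432941-122433090 for Cyba and chr5:134229626-134229775 for Ncf1.
Cybb: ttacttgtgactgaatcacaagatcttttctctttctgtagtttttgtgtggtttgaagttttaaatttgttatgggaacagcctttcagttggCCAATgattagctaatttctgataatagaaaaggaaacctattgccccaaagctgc
Cyba: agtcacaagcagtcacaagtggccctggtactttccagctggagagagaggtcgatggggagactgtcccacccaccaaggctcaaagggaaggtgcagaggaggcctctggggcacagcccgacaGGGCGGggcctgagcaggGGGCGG
Ncf1: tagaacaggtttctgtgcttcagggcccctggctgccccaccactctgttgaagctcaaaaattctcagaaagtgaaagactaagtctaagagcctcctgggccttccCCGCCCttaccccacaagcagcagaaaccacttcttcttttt

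The G and C share of these 150 bases was 35.3% for Cybb, 50.7% for Ncf1 and 64.7% for Cyba. The Cybb window held 1 CCAAT, beginning 56 bases before the start, and no GGGCGG. The Cyba window held GGGCGG at 24 and at 6 bases before the start, and that of Ncf1 held it once, on the other strand, 42 bases before the start. Over both strands of the 250 bases before the start, CCAAT was found in 33.8% and GGGCGG in 32.7% of 32851 promoters. GAGGAA (or TTCCTC), one form of the sites bound by PU.1, was in 23.3% of all promoters and not in these 3. The shorter GGAA core shared by Ets factors was not searched for. The Cybb start of RefSeq lies inside the longer gene span of GENCODE.

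The membrane pair was the most abundant part of the complex. Cyba stood at 1036 CPM in YFP− cells (2505 UMIs, Poisson 95% interval 996 to 1077) and at 1081 CPM in YFP+ cells (7291 UMIs, 1056 to 1106). Cybb stood at 331 CPM in YFP− cells (801 UMIs, 309 to 355) and at 307 CPM in YFP+ cells (2070 UMIs, 294 to 320.3). Over both libraries 3.41 UMIs of Cyba were counted for each UMI of Cybb, with 3.13 in YFP− (2.89 to 3.39) and 3.52 in YFP+ (3.35 to 3.70). UMIs were captured at the 3′ ends of transcripts and were not divided by length, so such a ratio compares counted molecules and not proteins.

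The cytosolic subunit genes Ncf1 and Ncf4 and the GTPase gene Rac2 were counted less often. Rac2 stood at 139 CPM in YFP− (337 UMIs, 125 to 155) and 127 CPM in YFP+ cells (859 UMIs, 119 to 136). Ncf1 stood at 96.8 CPM in YFP− (234 UMIs, 84.8 to 110.0) and 105 CPM in YFP+ cells (709 UMIs, 97.5 to 113). Ncf4 was lowest, at 40.5 CPM in YFP− (98 UMIs, 32.9 to 49.4) and 46.5 CPM in YFP+ cells (314 UMIs, 41.5 to 52.0). The order Cyba, Cybb, Rac2, Ncf1, Ncf4 was the same in both libraries, and within each library the intervals of neighbours in this order did not overlap. Every level was far above the floor of 3 UMIs per library, which was 1.24 (YFP−) and 0.445 CPM (YFP+).

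**Figure D1:**
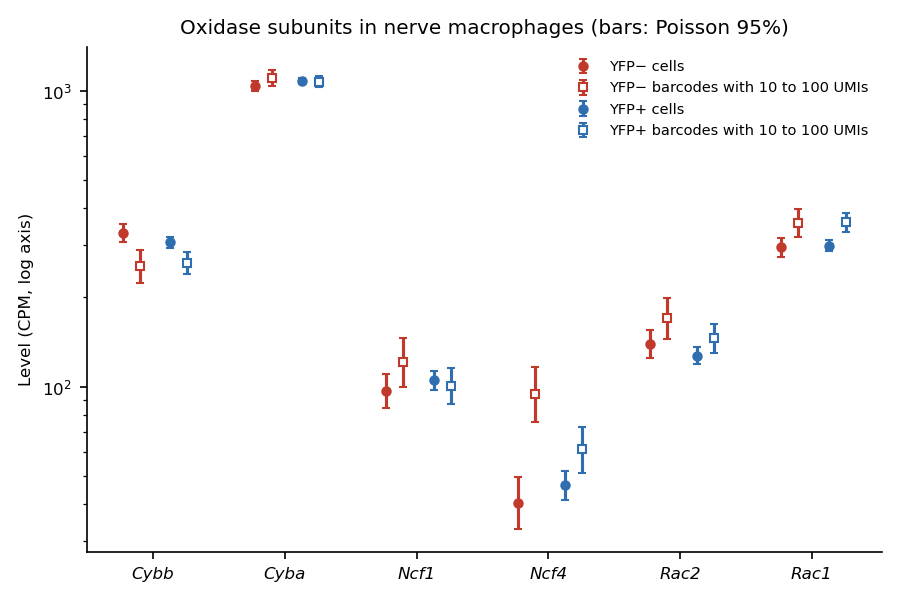
Levels (CPM, log axis) of the 5 subunit genes and of Rac1 in YFP− (red) and YFP+ (blue) cells as filled circles, and in barcodes with 10 to 100 UMIs of the same libraries as open squares, with Poisson 95% intervals. Cyba lies near 1000 CPM and Ncf4 near 40 CPM in both libraries, and of the genes plotted Cybb is the one whose cells lie above the low-UMI barcodes in both.

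None of the 5 subunit genes differed by 1.5-fold between YFP+ and YFP− cells, the background being 7.3% of 5531 genes with a mean of at least 20 CPM. The log2 ratio of YFP+ over YFP− was −0.11 for Cybb (counting interval −0.23 to 0.01) and 0.06 for Cyba (−0.00 to 0.13). It was 0.12 for Ncf1 (−0.10 to 0.33), 0.19 for Ncf4 (−0.13 to 0.53) and −0.13 for Rac2 (−0.31 to 0.06). The direction for Ncf4 turned with each cell thinned to 500 UMIs (−0.80, 1 random draw) and with equal weight for each cell (−0.01), and that for Rac2 turned in cells with 1000 to 3000 UMIs (0.10). All 5 intervals held 0, while 25.4% of all genes tested had an interval that did not. Among the 2807 tested genes with summed counts in the range of the 5, this share was 30.1%. The median of the 5 log2 ratios was 0.06 and that of all genes tested was −0.00. For Cyba the interval leaves room for a ratio between 0.997 and 1.09, and for Ncf4, with the fewest UMIs, it reaches 0.53 on the log2 scale.

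Partners of the complex were set beside the subunit genes. Rac1, the widely expressed Rac, stood at 295 CPM in YFP− (274 to 318) and 299 CPM in YFP+ cells (286 to 313). These intervals overlapped those of Cybb in both libraries. The log2 ratio of Rac1 was 0.02 (−0.10 to 0.14). For each UMI of Rac1, 0.472 UMIs of Rac2 were counted in YFP− (0.413 to 0.538) and 0.425 in YFP+ cells (0.392 to 0.461). Counting intervals without 0 were found for 3 of the 5 tested partners, and for 25.4% of all genes tested. Rap1a, a small GTPase found with the membrane pair, stood at 178 (YFP−) and 208 CPM (YFP+) (0.22, 0.07 to 0.38). Cybc1, the chaperone needed for gp91phox to mature, stood at 68.2 and 53.9 CPM (−0.33, −0.60 to −0.06). Nrros, a protein of the endoplasmic reticulum that limits gp91phox abundance, stood at 174 and 146 CPM (−0.25, −0.42 to −0.09).

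Genes of the other oxidases were nearly absent from the counts. Nox1, Nox3, Nox4, Noxa1, Duox1, Duox2, Duoxa1 and Duoxa2 had 0 UMIs in both libraries, and Noxo1, the organiser of the Nox1 complex, had 5 UMIs in YFP− and 12 in YFP+ cells. The proton channel gene Hvcn1, whose product balances the charge that the oxidase moves, stood at 10.8 CPM (26 UMIs) in YFP− and 5.04 CPM (34 UMIs) in YFP+ cells, below the level needed to be counted among the tested genes. Its log2 ratio was −0.96 (−1.64 to −0.26).

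In the lists of genes around the oxidase, none of the tested members lay past 1.5-fold in either direction. They comprised 5 of 15 other components and partners, 9 of 13 Rac regulators, 7 of 8 kinases of the cytosolic subunits, 11 of 16 genes that handle superoxide and peroxide and 6 of 6 transcription factors of myeloid oxidase genes. The background was 1.54% of genes past 1.5-fold higher in YFP+ and 5.77% higher in YFP− cells. The most abundant Rac regulators were Arhgdia (289 (YFP−) and 285 CPM (YFP+)), Arhgdib (246 and 254 CPM), Arhgap15 (110.0 and 113 CPM) and Vav3 (73.6 and 81.5 CPM), and none of the 9 had an interval without 0. The inhibitors Arhgdia and Arhgdib, which hold Rac in the cytosol, were thus each counted more often than Rac2 itself in both libraries.

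Among the kinases, Pak2 (128 and 112 CPM), Prkcd (112 and 124 CPM), Mapk14 (101 and 81.1 CPM) and Prkcb (73.2 and 67.7 CPM) were highest. Of the 7 tested, Mapk14, the p38 kinase, was the one with an interval without 0 (log2 ratio −0.32, −0.54 to −0.10). Among the genes that remove the products, the peroxidases Gpx1 (681 and 685 CPM), Prdx1 (462 and 523 CPM), Prdx5 (302 and 285 CPM) and Gpx4 (196 and 179.6 CPM) led, and 2 of the 11 had intervals above 0 and none below, beside 25.4% of all genes with an interval without 0. The log2 ratio of Prdx1 was 0.18 (0.08 to 0.28). Of the transcription factors, Spi1, which encodes PU.1, stood at 340.4 and 353 CPM (0.05, −0.06 to 0.17), Irf8 at 189 and 184 CPM and Runx1 at 126 and 124 CPM. Cebpb stood at 387 (YFP−) and 477 CPM (YFP+) (0.30, 0.20 to 0.41), the highest log2 ratio of the 6, and 2 of the 6 had intervals below 0, so that 3 of 6 held no 0, beside the same 25.4% of all genes.

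**Figure D2:**
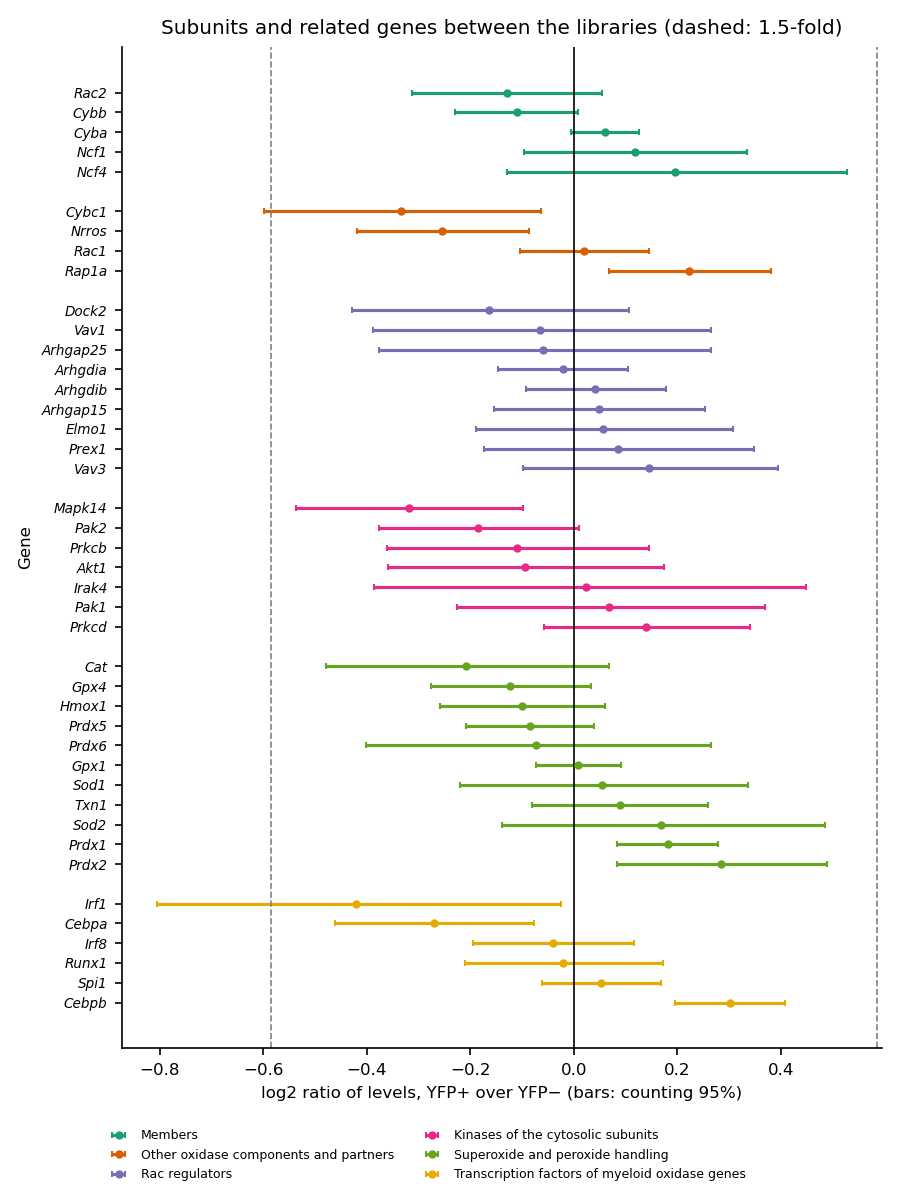
Log2 ratio of levels, YFP+ over YFP−, for the 5 subunit genes and tested genes of 5 related lists, with 95% counting intervals and dashed lines at 1.5-fold. All points lie between the dashed lines, and the intervals of the 5 subunit genes in the top group all hold 0.

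The RNA outside cells was rich in the same genes. In barcodes with 10 to 100 UMIs, taken to hold mostly free RNA, Cyba stood at 1104 (YFP−) and 1073 CPM (YFP+), and its log2 ratio of cells over these barcodes was −0.09 (−0.20 to 0.02) and 0.01 (−0.06 to 0.08). Cybb was higher in cells, by 0.38 in YFP− (0.16 to 0.59) and 0.23 in YFP+ (0.09 to 0.37) on the log2 scale. Ncf4 was lower in cells than in these barcodes, which stood at 94.5 (YFP−) and 61.4 CPM (YFP+), with log2 ratios of −1.20 (−1.63 to −0.77) and −0.39 (−0.69 to −0.09). With 10% of each library's cell counts taken as free RNA and subtracted, the log2 ratio of Ncf4 between YFP+ and YFP− cells was 0.37. The part of free RNA in the counts of single cells was not tested.

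Across the 9 macrophage clusters the membrane pair varied little. Cybb ranged from 269 CPM in cluster 1, led by Ccl12, Rpl13a-ps1 and Alkbh6, to 369 CPM in cluster 6, led by Il1b, Cxcl2 and Hspa1a. In order, Cybb stood at 369 CPM in cluster 6, 325 in cluster 4, 320.0 in cluster 8, 311 in clusters 2 and 3, 305 in cluster 7, 292 in cluster 9, 283 in cluster 5 and 269 in cluster 1. Of the neighbours in this order only clusters 6 and 4 differed beyond counting error (log2 ratio 0.18, 0.01 to 0.36), and cluster 10 followed at 201 CPM.

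Cyba was highest in cluster 7, led by the interferon-induced genes Ifit3, Irf7 and Ifit2, at 1294 CPM. It then stood at 1192 CPM in cluster 5, 1180.5 in cluster 4, 1179 in cluster 1, 1080.2 in cluster 9, 1041 in cluster 3, 964 in clusters 8 and 2, and 938 in cluster 6. With both libraries summed, cluster 7 lay above the other cells by 0.28 on the log2 scale (0.13 to 0.44). No neighbours among these 9 differed beyond counting error, although the ends had an interval without 0 (log2 ratio 0.46, 0.29 to 0.63, of cluster 7 over cluster 6). For each gene the ends were picked as the furthest apart of the 9 clusters, which such an interval does not allow for. The same range, 0.46, held for Cybb, and 1.17 was the median range over the 5531 genes tested, in which genes with fewer UMIs carry more counting error.

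Rac2 ranged from 99.7 CPM in cluster 4, led by Snhg20, Mmp9 and mt-Co2, to 178 CPM in cluster 9, led by the mitotic genes Top2a, Birc5 and Nusap1 (log2 range 0.83, 0.30 to 1.33). Its ends were also picked as the furthest apart. Between these clusters the log2 ratio was 1.505 in YFP− (0.60 to 2.33), on 16 UMIs in the 13 cells of cluster 9, and 0.54 in YFP+ cells (−0.14 to 1.17), where the interval held 0. With both libraries summed, it stood between them at 164 CPM in cluster 7, 154 in cluster 1, 139.6 in cluster 6, 137 in cluster 5, 131 in clusters 3 and 8, and 130.4 in cluster 2. In this order only clusters 2 and 4 were neighbours that differed beyond counting error.

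Ncf1 ranged from 76.2 CPM in cluster 9 to 122 CPM in cluster 8, led by the lectin genes Cd209g and Cd209f and by Enpep, and no neighbours differed, nor did the ends (log2 range 0.67, −0.24 to 1.60). Its other levels were 119 CPM in cluster 7, 115 in cluster 5, 109.8 in cluster 2, 107 in cluster 3, 97.5 in cluster 6, 94.1 in cluster 1 and 93.6 in cluster 4. Ncf4 had the widest range, from 22.3 CPM (6 UMIs) in cluster 7 to 68.4 CPM (102 UMIs) in cluster 5, led by S100a4, Lgals3 and Tppp3 (log2 range 1.57, 0.44 to 2.95). These ends too were picked as the furthest apart. Between these clusters the log2 ratio was 1.02 in YFP− (−0.74 to 3.29), where the interval held 0, and 2.01 in YFP+ cells (0.47 to 4.02). With both libraries summed, it stood between them at 63.5 CPM in cluster 9, 54.8 in cluster 6, 46.4 in cluster 1, 38.4 in cluster 3, 36.1 in cluster 8, 36.0 in cluster 2, and 31.0 in cluster 4, and no neighbours differed.

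**Figure D3:**
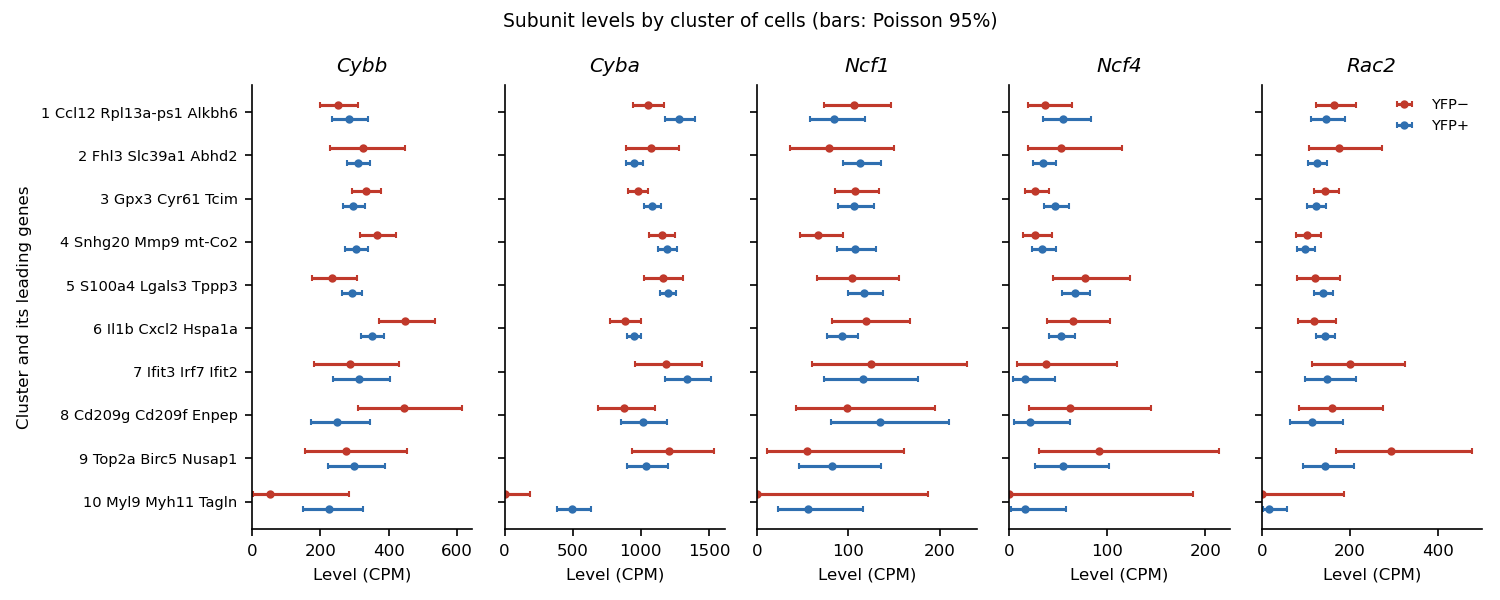
Levels (CPM, linear axes from 0) of each subunit gene in the 10 clusters, named by number and their 3 leading genes, in YFP− (red) and YFP+ (blue) cells with Poisson 95% intervals. Most intervals of the libraries overlap within a cluster, Ncf4 stands at 76.7 (YFP−) and 66.9 CPM (YFP+) in cluster 5, and all 5 genes are lower in cluster 10 with both libraries summed.

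In cluster 6, the cells with the inflammatory genes Il1b and Cxcl2, the membrane pair lay on opposite sides of the other cells in both libraries, Cybb above and Cyba below. Cybb stood at 449 CPM against 316 in the other YFP− cells (log2 ratio 0.50, 0.22 to 0.78) and at 352 against 296 in YFP+ cells (0.25, 0.10 to 0.40). Cyba stood at 883 CPM against 1056 in YFP− cells (−0.26, −0.45 to −0.07) and at 949 against 1112 in YFP+ cells (−0.23, −0.32 to −0.14). The count of Cyba for each UMI of Cybb was 1.97 in YFP− (1.58 to 2.46) and 2.70 in YFP+ cells (2.42 to 3.01) of cluster 6. With both libraries summed it was 2.54 in cluster 6 (2.31 to 2.80), and it was highest in cluster 1 at 4.39 (3.75 to 5.15), cluster 7 at 4.24 (3.33 to 5.47) and cluster 5 at 4.22 (3.79 to 4.70). None of the 5 genes was past 1.5-fold in cluster 6 with both libraries summed, against 9.49% of genes tested.

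For Ncf1 in cluster 6 both intervals held 0, at 119 against 93.9 CPM in YFP− (0.34, −0.23 to 0.88) and 92.9 against 108 CPM in YFP+ cells (−0.21, −0.51 to 0.07). The 8 immediate-early markers, which rise when tissue is dissociated as well as on activation, summed to 18104 CPM in cluster 6 and 4236 CPM in the other cells, and their part in these differences was not tested.

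In cluster 5, where Ccr2 was also among the leading genes, Ncf4 was the subunit gene that stood out. It stood at 76.7 CPM against 36.9 in YFP− cells (17 UMIs in the cluster, log2 ratio 1.04, 0.20 to 1.79) and at 66.9 against 41.8 in YFP+ cells (85 UMIs, 0.67, 0.30 to 1.02). It was past 1.5-fold higher in each library, as were 0.994% of genes tested. Among the 5 genes and 9 macrophage clusters, no other pair passed this limit, and the pair was picked for that. Over these clusters the share of genes tested ran from 0.271% (cluster 3) to 9.04% (cluster 9). With both libraries summed, Cyba was 0.19 higher (0.12 to 0.26) and Cybb 0.17 lower (−0.33 to −0.02 as log2 ratios) than in the other cells. This cluster held 7.85% of YFP− and 16.4% of YFP+ cells.

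In cluster 4, Rac2 stood at 103 CPM against 149 in YFP− cells (log2 ratio −0.53, −0.98 to −0.11) and at 98.1 against 132 in YFP+ cells (−0.43, −0.75 to −0.12). Ncf4 stood at 31.0 against 47.7 CPM with both libraries summed (−0.61, −1.06 to −0.17), past 1.5-fold as were 5.73% of genes tested, and Cyba at 1180.5 against 1047 CPM (0.17, 0.10 to 0.25). These cells had a mean of 1.67% of UMIs on mitochondrial genes and a median of 1353 UMIs. With a clustering resolution of 0.4 the nearest cluster had 2107 cells, 899 of them from cluster 4, and its log2 ratio for Rac2 was −0.06. With cells of at least 1000 UMIs, a limit chosen after seeing the data, the value in cluster 4 was −0.44.

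All 5 genes were lower in cluster 10 by 1.5-fold or more than in the other cells with both libraries summed, where 49.1% of genes tested were past 1.5-fold in either direction. For 4 of them, all but Cybb, this held in each library, as it did for 20.2% of genes tested. Rac2 had 2 UMIs in these 99 cells, or 13.9 CPM, and Ncf4 also 2. Ncf1 stood at 48.5, Cybb at 201 and Cyba at 429.7 CPM. Rac1, in contrast, stood at 263 CPM there, so that 0.0526 UMIs of Rac2 were counted for each UMI of Rac1 (0.00615 to 0.204) against 0.437 over all cells (0.408 to 0.468). The 13 YFP− cells of this cluster held 1 UMI of Cybb and none of the other 4, and at a floor of 3 UMIs (152.6 CPM) Cyba was at least 6.84-fold lower than in the other YFP− cells. For Ncf1, Ncf4 and Rac2 this floor lies above their level elsewhere, so no fold is given, and their place past 1.5-fold in YFP− cells rests on 0 UMIs.

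Within the 9 macrophage clusters, YFP+ and YFP− cells were set side by side for each subunit gene. Of these 45 ratios, 38 had intervals that held 0 and 7 did not, beside 8.94% of such pairs over all genes tested. Many of those genes had fewer UMIs, which widens intervals, and a share matched for UMIs was not taken. Cybb was lower in YFP+ cells of cluster 6 (log2 ratio −0.35, −0.64 to −0.05) and of cluster 8 (−0.84, −1.55 to −0.13). Cyba was higher in YFP+ cells of cluster 1 (0.29, 0.09 to 0.49) and cluster 3 (0.15, 0.01 to 0.28). Ncf1 stood at 67.2 (YFP−) and 107 CPM (YFP+) of cluster 4 (0.67, 0.10 to 1.26), and Ncf4 at 25.9 and 46.6 CPM in cluster 3 (0.83, 0.07 to 1.63). Rac2 stood at 293 and 143 CPM in cluster 9 (−1.03, −1.98 to −0.04), on 16 and 26 UMIs.

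The pattern across clusters was repeated between the libraries for Cyba more than for the others. Cyba also had the most UMIs, and counting error lowers r where UMIs are few, as for Ncf4 in cluster 7 (3 UMIs in each library). Its part in these values was not tested. Over the 8 clusters with at least 20 cells in both libraries, Pearson's r of log2(CPM + 1) in YFP− against YFP+ cells was 0.71 for Cyba, 0.45 for Rac2, 0.18 for Ncf4, 0.08 for Cybb and −0.15 for Ncf1. Of 2632 genes with a mean of at least 50 CPM, those most like Cyba over these clusters were C1qa (r = 0.94 in YFP− and 0.83 in YFP+), Med15 (0.80 and 0.89) and C1qc (0.78 and 0.87). The genes most like Cybb were Casp8, Pnrc1 and Inka1 (mean r from 0.73 to 0.76), and Mrfap1 and Eea1 were among those most like Ncf1 (0.69 and 0.67). Ncf4 was most like Rnf10, Polr1d and Pabpc1 (0.81 to 0.83), and Rac2 was most like Rpl19, Fth1 and Eid1 (0.75 to 0.76). These are descriptions over 8 points that share their libraries, picked as the highest of many genes.

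Cybb was highest in shallow cells and Rac2 in deep ones. The cells of each library were cut by UMI count into 4 bins of equal cell number. From the shallowest to the deepest bin, Cybb went from 442 to 374, 306 and 302 CPM in YFP− and from 358 to 310.0, 304 and 295 CPM in YFP+ cells. Rac2 went from 77.7 to 124, 150.1 and 154 CPM in YFP− and from 86.0 to 114, 133 and 139 CPM in YFP+ cells. Ncf4 rose in YFP+ cells, from 23.6 CPM in the shallowest bin (13.7 to 37.8) to 51.1 in the deepest (43.3 to 59.9). In YFP− cells it did not, at 53.2 (28.3 to 91.0) and 42.1 CPM (30.3 to 56.9). Each of the 9 macrophage clusters was then cut into a deeper and a shallower part of near-equal cell number. The parts were summed over the clusters within each library. The log2 ratio of deeper over shallower parts was −0.38 for Cybb in YFP− (−0.59 to −0.17) and −0.15 in YFP+ cells (−0.28 to −0.02). By cluster, Cybb was higher in the shallower part in 8 of 9 in YFP− and 6 of 9 in YFP+ cells. The summed ratio of Rac2 was 0.31 in YFP− (−0.03 to 0.67) and 0.25 in YFP+ cells (0.04 to 0.47). By cluster, Rac2 was higher in the deeper part in 4 of 9 in YFP− and 7 of 9 in YFP+ cells. The intervals of this summed ratio held 0 in both libraries for Cyba, Ncf1 and Ncf4. Since YFP+ cells were shallower, the ratios between the libraries were also taken in cells with 1000 to 3000 UMIs, a range chosen after seeing the data. There the log2 ratio was 0.10 for Rac2 and −0.18 for Cybb, against −0.13 and −0.11 in all cells. It was 0.04 for Cyba, 0.22 for Ncf1 and 0.33 for Ncf4.

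**Figure D4:**
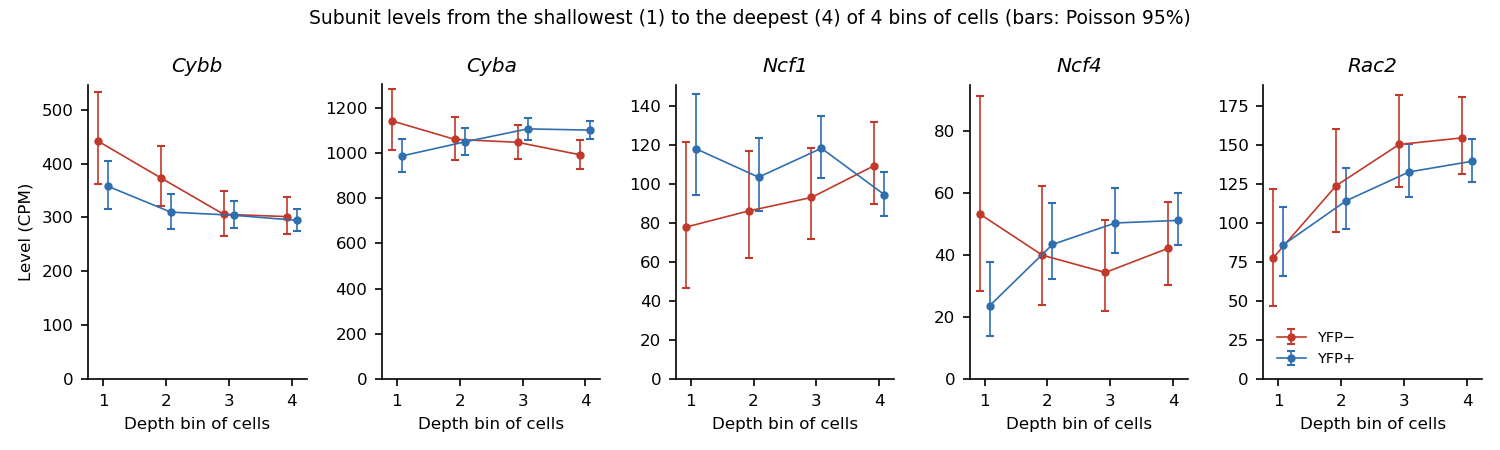
Level (CPM, axes from 0) of each subunit gene in 4 equal bins of cells by UMI count, from the shallowest (1) to the deepest (4), in YFP− (red) and YFP+ (blue) cells with Poisson 95% intervals. Cybb goes down from 442 to 302 CPM in YFP− and from 358 to 295 CPM in YFP+ cells, and Rac2 goes up from 77.7 to 154 and from 86.0 to 139 CPM.

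To compare single cells, each was thinned to 500 UMIs. Cyba was then seen in 39.5% of YFP− (exact binomial interval 36.5 to 42.6) and 40.4% of YFP+ cells (38.9 to 42.0) of the macrophage clusters. Cybb was seen in 14.2% (12.2 to 16.5) and 14.3% (13.3 to 15.5), Rac2 in 6.20% (4.81 to 7.85) and 5.82% (5.11 to 6.60), and Ncf1 in 4.55% (3.37 to 6.01) and 5.07% (4.41 to 5.80). Ncf4 was seen in 3.20% (2.21 to 4.46) and 1.89% (1.49 to 2.36), but over all possible draws the expected shares of all cells were 2.04% in YFP− and 2.06% in YFP+. Over all draws Cybb was expected in 15.8% of YFP− and 14.5% of YFP+ cells of the macrophage clusters. In the draw used, the intervals of the libraries overlapped for all 5 genes. If all UMIs of a thinned cell were drawn from the RNA of the barcodes with 10 to 100 UMIs, the shares in YFP− and YFP+ would be 42.4% and 41.5% for Cyba, 12.0% and 12.3% for Cybb, 8.17% and 7.02% for Rac2, 5.87% and 4.91% for Ncf1, and 4.62% and 3.03% for Ncf4. The shares seen were above these for Cybb in both libraries, beyond the interval in each, and for Ncf1 in YFP+ cells within its interval. Those of Cyba, Rac2 and Ncf4, and of Ncf1 in YFP− cells, were below them, so a UMI of these genes in a cell cannot be told apart from free RNA by its share alone. Without thinning, Cyba had a UMI in 80.3% of all YFP− and 73.2% of all YFP+ cells, and Cybb in 47.6% and 36.4%.

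The shares were set beside cluster 10, whose cells (median 983 UMIs in YFP+, 1490 in the YFP+ macrophage clusters) were led by genes of other cell types. Of its 86 YFP+ cells thinned to 500 UMIs, 24.4% had Cyba (15.8 to 34.9), 11.6% Cybb (5.72 to 20.3) and 2.33% Ncf1 (0.283 to 8.15). Rac2 and Ncf4 had 0 of 86 cells, which allows a share of up to 3.49% at 3 counts and 4.20% by the exact binomial interval, and before thinning each had 2 UMIs in these cells. The share of Cyba in YFP+ macrophages lay above that of cluster 10, as did that of Rac2, although neither lay above the share that free RNA alone would give, while for Cybb, Ncf1 and Ncf4 the difference was not detectable with 86 cells. Whether macrophage RNA in these cells was free or came from a macrophage in the same droplet was not tested.

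How many of the 5 genes were seen in a cell depended on its depth. At 500 UMIs, 45.3% of YFP− and 44.9% of YFP+ macrophages had none of the 5, 43.4% and 43.8% had 1, and 9.79% and 10.3% had 2. The share with 3 was 1.45% in YFP− (0.816 to 2.39) and 1.06% in YFP+ (0.764 to 1.43), 1 YFP− cell had 4, and none had all 5. With all UMIs, 7.27% of YFP− and 14.0% of YFP+ macrophages had none, 34.4% and 38.8% had 1, 35.2% and 32.1% had 2, 18.1% and 12.0% had 3, and 4.26% and 2.80% had 4, while 8 and 11 cells had all 5. The absence of a UMI at this depth does not show that a cell lacked the transcript.

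**Figure D5:**
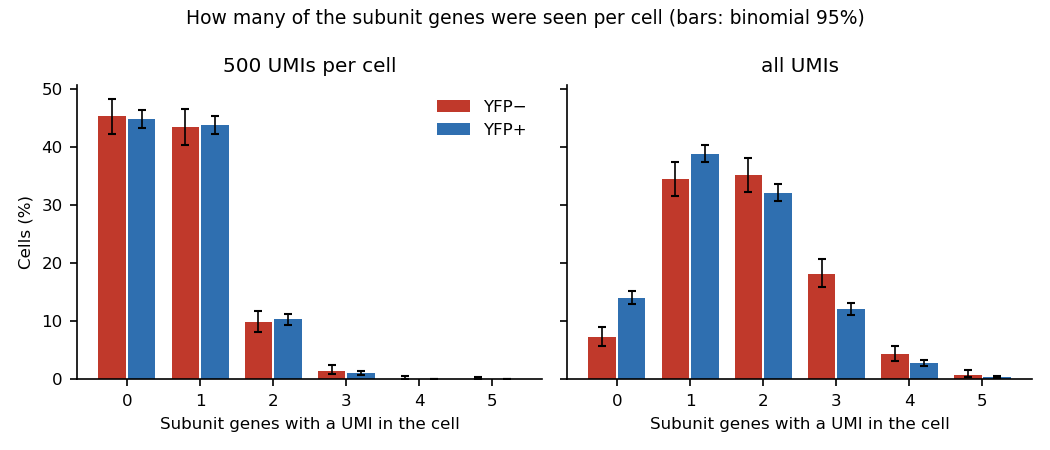
Percent of macrophages by the number of the 5 subunit genes with a UMI, at 500 UMIs per cell (left) and with all UMIs (right), in YFP− (red) and YFP+ (blue) cells, with exact binomial 95% intervals. At equal depth the bars of the libraries lie together, with 45.3% and 44.9% of cells at 0, and with all UMIs the deeper YFP− cells lie further right.

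At 500 UMIs per cell the spread of the 5 genes lay near counting error, and Cybb in YFP− cells lay furthest above it. The mean of the thinned counts lay between 0.0194 UMIs for Ncf4 in YFP+ and 0.525 UMIs for Cyba in YFP+ cells. Their variance over their mean, which is 1 for counting error alone, lay between 0.975 for Rac2 in YFP+ and 1.22 for Cybb in YFP− cells. For genes within the range of means of the 5, the value was 1.04 in YFP− (1895 genes) and 1.01 in YFP+ cells (3257 genes). Values near 1 were thus not particular to the 5 genes. Within the same range, Ccl4 gave 3.04 in YFP− (mean 0.0581 UMIs) and 4.76 in YFP+ cells (0.113 UMIs). Retnla gave 11.2 in YFP− cells (0.407 UMIs). At means below this range Il1b gave 0.997 in YFP− (0.00291 UMIs) and 1.66 in YFP+ cells (0.00756 UMIs). Smaller differences between cells can be hidden in counts this sparse. The 10 pairwise correlations over thinned cells lay between −0.03 and 0.05 in YFP− and between −0.02 and 0.03 in YFP+ cells, too weak to be read as a relation. At the same depth Fos and Jun gave 0.42 and 0.45, and H2-Aa and Cd74 gave 0.53 and 0.53. Fos (mean 0.760 and 0.818 UMIs) and H2-Aa (3.19 and 3.89 UMIs) were counted more often than any of the 5 genes. C1qa and C1qb gave 0.28 and 0.29, the lowest of the comparison pairs. Ccl3 and Ccl4 gave 0.42 and 0.51, where Ccl4 (0.0581 and 0.113 UMIs) was counted less often than Cyba and Cybb. Ccl4 also varied far more between cells (3.04 and 4.76), so its r does not show what sparse counts would give for the 5 genes.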

How the data were processed

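Macrophages of the sciatic nerve were measured as 2 single-cell libraries, YFP− and YFP+. The authors mapped 10x Chromium v2 reads to GRCm38 with Cell Ranger and deposited the unnormalized UMI count of every gene in every barcode. The submitters' processing notes name Cell Ranger 3.0.2 and Seurat 2.2.0, whereas the methods name an earlier Cell Ranger. The annotation release is not given in the sources used here. The authors kept cells by mapped reads per cell, which UMI counts cannot repeat, so barcodes with at least 500 UMIs and 200 genes were used. Scrublet marked 3 YFP− cells and 0 YFP+ cells (0.287% and 0%). Whether it had worked was not checked, and the marked cells and any other doublets were kept.

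Counts were summed per library or cluster and given as CPM with exact Poisson 95% intervals. Log2 ratios used a pseudocount of 1 CPM and exact binomial intervals. UMI intervals cover counting error only. Clusters (scanpy 1.11.5, 2000 variable genes, 20 components, 20 neighbours, Leiden resolution 0.8) were found without the subunit genes and related lists. Cells were thinned to 500 UMIs for shares, with Clopper-Pearson intervals. Python 3.11.15 with scipy 1.17.1 was used, and the steps were tested on simulated data. The genes and lists were chosen with earlier results of these data known. Named were the 5 subunit genes, Rac1, Nrros, Cybc1, Hvcn1, list genes past 1.5-fold, the 4 most abundant of each list, the 3 genes most like each subunit gene, and 3 leading genes per cluster. Prominent other genes (the 0-count oxidases, Noxo1 and comparison genes) were chosen after their values were seen. Some genes that this rule names are not reported here.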

Additional observations from a re-analysis of the deposited data

How the results depend on the processing

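No paired analysis was possible because each group was 1 library and the labels carry no replicate numbers. The log2 ratios between the libraries gave 55 values under other settings, of which 53 stayed within the counting interval of the value reported. The exceptions were Ncf4 with each cell thinned to 500 UMIs (−0.80) and Rac2 in cells with 1000 to 3000 UMIs (0.10), the latter a range chosen after seeing the data. Thinning leaves 1 random draw of few UMIs. Some settings changed little in the counts or ratios, so their values could hardly leave the interval. Among these were leaving out cells marked by Scrublet, a limit of 10% on mitochondrial UMIs, a pseudocount of 0.1 CPM and setting the median log2 ratio of all genes to 0. Over all settings the ratios ranged from −0.18 to −0.10 for Cybb, 0.00 to 0.09 for Cyba, 0.09 to 0.24 for Ncf1, −0.80 to 0.37 for Ncf4 and −0.17 to 0.10 for Rac2.

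Of the 5 subunit genes, 0 were past 1.5-fold under every setting of this count tried. Thinning to 500 UMIs was not among these settings, and in its 1 draw Ncf4 was past 1.5-fold (log2 ratio −0.80). The count over all genes was 404 of 5531, 4099 of 21115 without a filter on low counts and 181 of 2632 with a mean of at least 50 CPM.

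Shares of cells depend on depth. Without thinning they were 47.6% and 36.4% for Cybb in YFP− and YFP+, 80.3% and 73.2% for Cyba, 18.3% and 15.0% for Ncf1, 8.33% and 7.11% for Ncf4, and 23.4% and 18.1% for Rac2. At 1000 UMIs they were 27.2% and 25.8% for Cybb, 61.1% and 64.3% for Cyba, 8.27% and 8.99% for Ncf1, 3.69% and 4.91% for Ncf4, the other order than in the draw of 500 UMIs, and 10.3% and 11.9% for Rac2. The expected share of Ncf4 in YFP− cells over all draws was 2.04%, against 3.16% in the draw used.

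Of 24 values for clusters, 21 stayed within the interval reported. The exceptions were Cybb in cluster 6 of YFP− cells alone (0.50), Cyba in cluster 6 at a resolution of 1.2 (−0.36) and Rac2 in cluster 4 at a resolution of 0.4 (−0.055). The causes were not tested.

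With 1 library a group, no difference between YFP− and YFP+ cells can be told apart from a difference between libraries. Ncf4, with 98 UMIs in YFP− cells, sets the widest interval.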
